A study of Mus musculus with 6 samples.

Results

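The genes described here are the core of the NF-kB system as it was measured in mouse mammary luminal cells given EFNA3, the ephrin-A3 protein. They are the 5 genes of the NF-kB subunits (Rel, Rela, Relb, Nfkb1 and Nfkb2) and 5 genes of its inhibitors and feedback proteins (Nfkbia, Nfkbib, Nfkbie, Nfkbiz and Tnfaip3). The members were chosen by symbol, and all 10 were found among the 19739 genes of the deposited table and passed the filter on low values. RNA was sequenced from 6 libraries of wild type (WT) primary luminal cells, which line the ducts and alveoli of the mammary gland and had been sorted by flow cytometry and grown in a medium with 5% FBS, EGF, FGF2, heparin and the ROCK inhibitor Y-27632. All cultures were kept without serum for 12 hours. The EFNA3 group (3 libraries) then spent 24 hours in serum-free medium that held 1 µg/ml of EFNA3 protein, and the Control group (3 libraries) is labelled 0 µg/ml. Whether replicates come from different mice or dishes is not stated in the labels. The p-values below therefore reflect the scatter among these 6 libraries alone, which may be technical. The age and sex of the mice and the form of the protein are not stated either.

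NF-kB is a family of dimeric transcription factors. In resting cells the dimers are held back by inhibitor of kB (IkB) proteins, which a kinase complex marks for destruction after signals such as tumour necrosis factor, interleukin-1 or bacterial products. Freed dimers switch on genes of inflammation and survival, and among these are the genes of their own inhibitors, which close a negative feedback loop. In the mammary epithelium the pathway is known for its part in ductal branching, in alveolar growth downstream of RANK and in the inflammatory response of the gland.

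Values are the authors' log2 expression values, in which all libraries share 1 distribution with a median of 8.10. A global shift is therefore invisible on this scale, and the depth is unknown. Differences are EFNA3 minus Control on that log2 scale, tested with limma over 16394 genes with a log2 value of at least 3.32 in 3 or more libraries, with Benjamini-Hochberg adjustment. No gene passed at an adjusted p of 0.05, or 0% of all genes tested, while 1104 stood at an unadjusted limma p under 0.05, or 6.73%. Transcript length set EFNA3 replicate 1 apart: its median deviation from the gene means was 0.32 in the shortest eighth of tested genes and -0.32 in the longest, while the other 5 libraries lay between -0.13 and 0.12 in these eighths. The Spearman correlation of deviation with length was -0.53, 0.04 and 0.15 in EFNA3 replicates 1, 2 and 3. It was 0.33, 0.36 and 0.09 in Control replicates 1, 2 and 3, so Control replicates 1 and 2 leaned the other way. All 13 luminal markers were tested, 8 with higher and 5 with lower means in EFNA3 libraries. The luminal keratins Krt7 and Krt19 and the adhesion gene Epcam had EFNA3 values above all Control values, at differences of 0.22, 0.21 and 0.17. The prolactin receptor gene Prlr had EFNA3 values below all Control values, at -0.31. Of the 13, 3 were thus separate above and 1 below, against 8.53% and 7.45% of all genes tested. EFNA3 replicate 1 was the highest library for Krt7, Krt19 and Epcam and the lowest for Prlr. Of 6 fibroblast markers tested, 4 had higher and 2 lower means in EFNA3 libraries, with a median difference of 0.24. Both lower ones, Fbln1 at -0.31 and Pdgfra at -0.22, had EFNA3 values below all Control values, against 7.45% of all genes tested. The 4 higher ones had overlapping groups. Of the lineage markers, Krt8 stood at 13.82 ± 0.11 in EFNA3 and 13.70 ± 0.06 in Control libraries, and Elf5 at 12.58 ± 0.10 and 12.57 ± 0.02 (SD, n = 3 each). Of 9 basal markers 7 passed the filter, 4 with higher and 3 with lower means in EFNA3 libraries. Basal keratins were present as well, with Krt14 at 16.38 ± 0.05 in EFNA3 and 16.26 ± 0.08 in Control libraries. Krt5 stood at 14.94 ± 0.07 and 14.91 ± 0.02 in the same order. As deposited, Krt14 and Krt5 both lay above the luminal keratin Krt8. Krt17 was the 1 basal marker with EFNA3 values above all Control values, at a difference of 0.23, against 8.53% of all genes tested. Of the other basal markers, Myh11 and Cnn1 did not pass the filter. Tagln stood at 4.67 ± 0.52 in EFNA3 and 5.20 ± 0.11 in Control libraries. Means were 7.84 and 7.77 for Acta2, 11.74 and 11.79 for Trp63, and 13.31 and 13.44 for Oxtr, in the same order. Of 15 immune markers 5 had values here and 3 passed the filter; Ptprc, which defines leukocytes, was not analysed here. On the linear scale the immune markers summed to between 175.0 and 249.3 in EFNA3 libraries and between 169.8 and 220.3 in Control libraries, and the part of any of these cells or markers in the results was not tested. In bulk RNA, fewer cells of a type and less RNA per cell cannot be told apart.

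Of the 10 genes, Nfkbia stood apart from its Control level by more than the spread between libraries, with a mean 1.24-fold that of Control. The other 4 inhibitor and feedback genes and all 5 subunits had overlapping groups and differences between -0.07 and 0.23. No member passed limma adjusted over all genes tested, against 0% of all genes. At an unadjusted limma p under 0.05 there was 1 member, Nfkbia, against 6.73% of all genes tested, made up of 3.87% higher and 2.86% lower in EFNA3 libraries. Groups were separate in 1 of 10 members, against 16.0% of all genes tested, made up of 8.53% with EFNA3 above and 7.45% with EFNA3 below. With 10 members, both counts are near these backgrounds. By mean, 9 of 10 members were higher in EFNA3 libraries, against 50.8% of all genes tested.

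**Figure D1:**
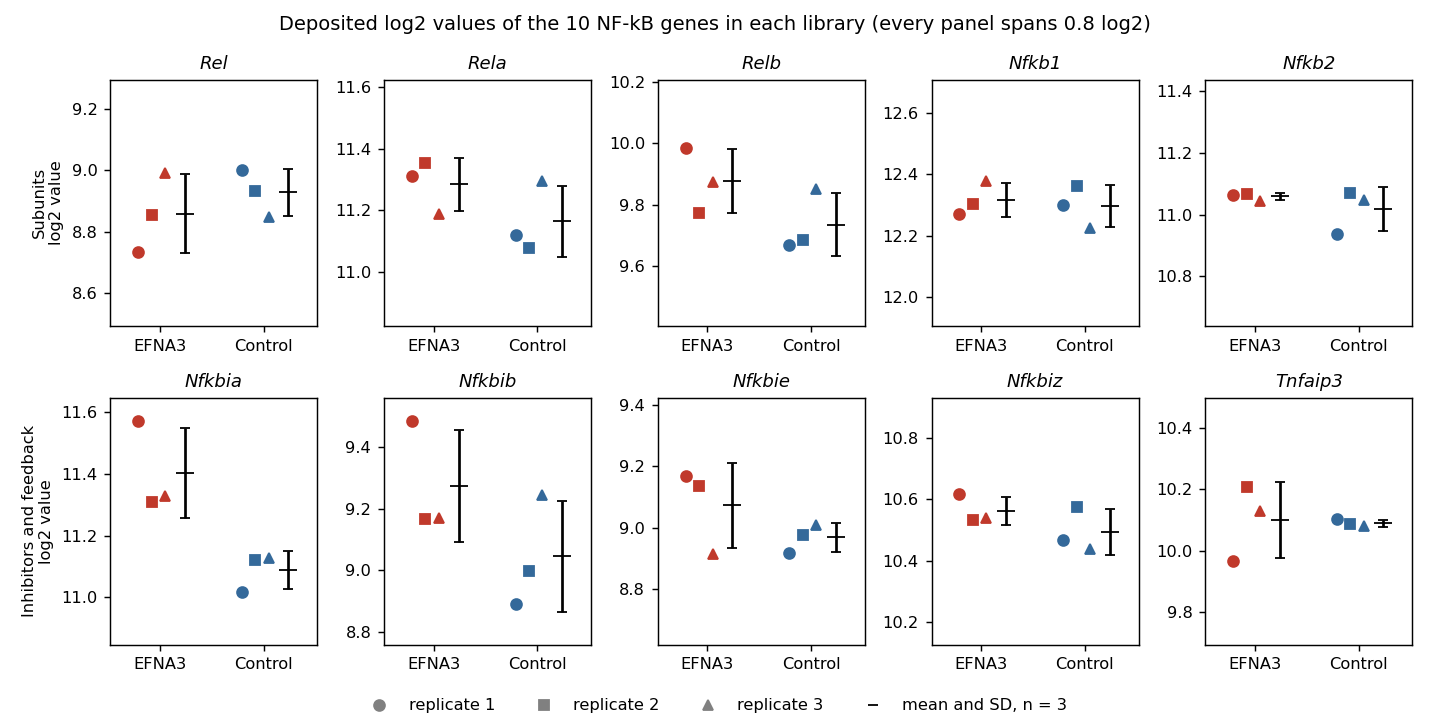
Deposited log2 values (vertical axis, log2) of the 5 subunit genes (top row) and the 5 inhibitor and feedback genes (bottom row) in 3 EFNA3 and 3 Control libraries; symbols mark the replicate number, and the bar beside them gives the mean and SD. Only in the Nfkbia panel do all 3 EFNA3 libraries, between 11.31 and 11.57, lie above all 3 Control libraries, between 11.02 and 11.13.

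Nfkbia encodes IkB-alpha, an inhibitor that NF-kB induces rapidly and that carries dimers back out of the nucleus. Its log2 values were 11.57, 11.31 and 11.33 in EFNA3 replicates 1, 2 and 3, against 11.02, 11.12 and 11.13 in Control replicates 1, 2 and 3. Every EFNA3 library lay above every Control library, and EFNA3 replicate 1 was the highest. The difference was 0.31 (SE 0.09, 95% interval 0.12 to 0.51), with an unadjusted limma p of 0.00568, the 39th smallest of 16394, and an adjusted limma p of 0.55. With 3 libraries in each group the smallest two-sided p of an exact permutation test is 0.1, which Nfkbia reached. Without EFNA3 replicate 1 the difference was 0.23, with an unadjusted limma p of 0.0017 and an adjusted limma p of 0.87, and without any other 1 library it lay between 0.28 and 0.36.

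The Nfkbia promoter is shown because the gene is a known NF-kB target and the one member whose groups were separate. RefSeq promoter windows (build GRCm38.p6, from 250 bases before the start site to 50 after it) were found for 7 of the 10 members; Relb, Nfkb1 and Nfkbiz had none. They were searched on both strands for the NF-kB consensus, a motif of 10 bases, whose matches are in capitals. The Nfkbia window, chr12:55492598-55492897 on the minus strand, holds 1 match, on the strand opposite to the gene, from base -29 to base -20 of the start site, counted without a base 0:
Nfkbia: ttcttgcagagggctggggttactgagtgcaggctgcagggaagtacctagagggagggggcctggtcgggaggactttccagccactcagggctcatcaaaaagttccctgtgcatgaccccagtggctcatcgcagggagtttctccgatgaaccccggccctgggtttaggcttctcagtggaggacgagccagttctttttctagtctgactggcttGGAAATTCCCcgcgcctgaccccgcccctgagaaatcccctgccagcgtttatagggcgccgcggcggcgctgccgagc
Matches also stood in windows of Rel, Nfkb2, Nfkbie and Tnfaip3, so 5 of 7 members with a window held at least 1, against 6.29% of 11193 tested genes with a window and 4.51% of all 32851 windows. The members were chosen as NF-kB genes, some of them known NF-kB targets, so a high share was likely before the search. A match describes the sequence and does not show that NF-kB binds there. Stretches around them, each with 15 bases on either side, are set side by side to show that subunit and inhibitor genes hold the same kind of site; overlapping matches are merged into 1 run of capitals:
Rel, chr11:23771036-23771076, minus strand, bases -92 to -82: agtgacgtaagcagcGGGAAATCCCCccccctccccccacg
Nfkb2, chr19:46304683-46304723, plus strand, bases -39 to -29: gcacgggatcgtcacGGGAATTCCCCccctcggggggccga
Nfkb2, chr19:46304711-46304750, plus strand, bases -11 to -2: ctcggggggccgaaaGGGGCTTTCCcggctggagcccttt
Nfkbie, chr17:45555579-45555618, plus strand, bases -106 to -97: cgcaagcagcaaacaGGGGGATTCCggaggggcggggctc
Tnfaip3, chr10:19015511-19015550, minus strand, bases -125 to -116: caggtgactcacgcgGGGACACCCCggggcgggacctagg
Tnfaip3, chr10:19015398-19015437, minus strand, bases -12 to -3: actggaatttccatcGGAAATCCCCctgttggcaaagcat
The other windows of Nfkb2, which has 3, are not printed. The windows of Rela and Nfkbib held no match. Whether matches go with the differences between EFNA3 and Control libraries was not tested.

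Among the other inhibitors, Nfkbib, which encodes IkB-beta, an inhibitor with slower turnover than IkB-alpha, had log2 values of 9.48, 9.17 and 9.17 in EFNA3 replicates 1, 2 and 3, against 8.89, 8.998 and 9.24 in Control replicates 1, 2 and 3. The groups overlapped, since Control replicate 3 lay above EFNA3 replicates 2 and 3. Its difference was 0.23 (SE 0.13, 95% interval -0.06 to 0.51), or 0.12 without EFNA3 replicate 1 and 0.33 without Control replicate 3, where its unadjusted limma p was under 0.05. Exons of Nfkbib share 314 bases with Ccer2 and 42 with Sirt2 on the opposite strand in GENCODE M21, and the strand setting of the counting is not stated.

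Nfkbie encodes IkB-epsilon, a further NF-kB-induced inhibitor. It stood at 9.17, 9.14 and 8.92 in EFNA3 replicates 1, 2 and 3, against 8.92, 8.98 and 9.01 in Control replicates 1, 2 and 3. EFNA3 replicate 3 was the lowest of all 6 libraries, and the difference was 0.10 (SE 0.10). It was 0.06, 0.07 and 0.18 on leaving out EFNA3 replicate 1, 2 or 3 in that order.

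Nfkbiz encodes IkB-zeta, an atypical nuclear member that acts as a coactivator at secondary response genes. Its values were 10.62, 10.53 and 10.54 in EFNA3 replicates 1, 2 and 3, against 10.47, 10.58 and 10.44 in Control replicates 1, 2 and 3. The groups overlapped through Control replicate 2, and the difference was 0.07 (SE 0.07, 95% interval -0.10 to 0.23).

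Tnfaip3 encodes a ubiquitin-editing enzyme that shuts down signalling above the IkB kinases and is a classical NF-kB target. It had values of 9.97, 10.21 and 10.13 in EFNA3 replicates 1, 2 and 3, against 10.10, 10.09 and 10.08 in Control replicates 1, 2 and 3. The Control libraries were nearly level, while the EFNA3 libraries lay on both sides of them, with replicate 1 the lowest of all. The difference was 0.01 (SE 0.08, 95% interval -0.18 to 0.20). Single libraries turned its sign: leaving out EFNA3 replicate 1, 2 or 3 gave 0.08, -0.04 and -0.003 in that order.

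The groups of all 5 subunits overlapped. Rela, the activating partner of the classical heterodimer, had log2 values of 11.31, 11.35 and 11.19 in EFNA3 replicates 1, 2 and 3, against 11.12, 11.08 and 11.29 in Control replicates 1, 2 and 3. Control replicate 3 lay above EFNA3 replicate 3, and the difference was 0.12 (SE 0.08, 95% interval -0.07 to 0.31). Relb, the activating subunit of the non-canonical pathway, stood at 9.98, 9.77 and 9.88 in EFNA3 replicates 1, 2 and 3, against 9.67, 9.68 and 9.85 in Control replicates 1, 2 and 3. Only Control replicate 3 overlapped the EFNA3 libraries, and the difference was 0.14 (SE 0.09, 95% interval -0.06 to 0.35).

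Nfkb1 and Nfkb2 encode precursors whose processed forms bind DNA and whose unprocessed forms act as inhibitors. Nfkb1 had values of 12.27, 12.30 and 12.38 in EFNA3 replicates 1, 2 and 3, against 12.30, 12.36 and 12.23 in Control replicates 1, 2 and 3. Its groups covered nearly the same range, with a difference of 0.02 (SE 0.07) that turned to -0.01 when either EFNA3 replicate 3 or Control replicate 3 was left out. Nfkb2 stood at 11.06, 11.07 and 11.05 in EFNA3 replicates 1, 2 and 3, against 10.94, 11.07 and 11.05 in Control replicates 1, 2 and 3. Control replicate 1 alone was low, and without it the difference of 0.04 (SE 0.07) was 0.0008. Exons of Nfkb2 share 299 bases with Psd and 531 with AC114539.1 on the opposite strand in GENCODE M21.

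Rel, the gene of c-Rel, a subunit best known from lymphocytes, was the only member with a lower mean in EFNA3 libraries. Its values were 8.73, 8.85 and 8.99 in EFNA3 replicates 1, 2 and 3, against 9.002, 8.93 and 8.85 in Control replicates 1, 2 and 3. EFNA3 replicate 1 was the lowest of all 6, and the difference of -0.07 (SE 0.10, 95% interval -0.30 to 0.16) was -0.01 without that library.

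By role, the median difference was 0.10 over the 5 inhibitor and feedback genes and 0.04 over the 5 subunits, beside 0.004 over all 16394 genes tested. Leaving out 1 library moved these medians between 0.08 and 0.18 and between 0.02 and 0.07, in the same order, and the length and GC correction described below gave 0.08 for the subunits. All 5 inhibitor and feedback genes and 4 of 5 subunits had higher means in EFNA3 libraries. Set against the Control mean of each gene, the median of the inhibitor and feedback genes was 0.20, 0.12 and 0.05 in EFNA3 replicates 1, 2 and 3, against -0.05, 0.01 and 0.04 in Control replicates 1, 2 and 3. For the subunits it was 0.05, 0.04 and 0.06 in EFNA3 replicates 1, 2 and 3, against -0.04, 0.01 and 0.03 in Control replicates 1, 2 and 3. In both roles the EFNA3 medians lay above the Control medians, the nearest of them standing at 0.05 in EFNA3 replicate 3 and 0.04 in Control replicate 3 for the inhibitors and feedback genes. The difference between the roles was not tested.

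Transcript length moved with these differences. In the longest protein-coding transcripts of GENCODE M21, Nfkbia is the shortest member, at 1578 nt, and Rel the longest, at 7466 nt. Nfkbia falls in the second eighth of tested genes by length, where the median difference of all genes was 0.13, and Rel in the longest eighth, where it was -0.18. Each of the 10 members lay above the median of its own eighth, by 0.05 for Nfkb1 at the least and by 0.19 for Nfkbia at the most.

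**Figure D2:**
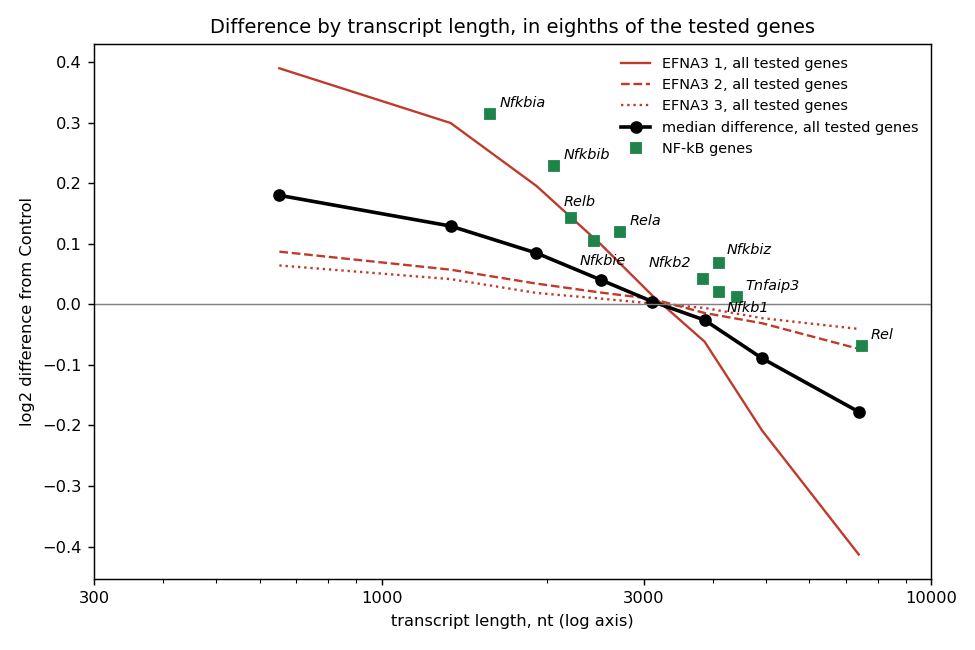
The log2 difference from Control (vertical axis) against transcript length (horizontal log axis, nt) for the 10 NF-kB genes (squares) and for all tested genes in 8 length classes, placed at the median length of each class (black line, median of EFNA3 minus Control; red lines, the class median in each EFNA3 library minus the mean of the class medians in Control libraries). The black line runs from 0.18 in the shortest class to -0.18 in the longest, and every square lies above it.

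When the trend with length and GC share was taken out of every library, all 10 members had higher means in EFNA3 libraries, against 54.8% of the 15972 tested genes with a length. Corrected differences ran from 0.06 for Nfkb2 to 0.25 for Nfkbia. Nfkbia kept its separation, at 11.45, 11.32 and 11.34 in EFNA3 replicates 1, 2 and 3, against 11.06, 11.18 and 11.13 in Control replicates 1, 2 and 3, with a corrected difference of 0.25 (SE 0.06, 95% interval 0.12 to 0.38). Rel turned from -0.07 to 0.10 (SE 0.08), and its corrected groups overlapped. Tnfaip3 moved from 0.01 to 0.09 (SE 0.06) and Rela from 0.12 to 0.08 (SE 0.05), and in both the corrected EFNA3 values lay above all Control values, in Rela by the narrowest of margins, 11.2299 in the lowest EFNA3 library and 11.2298 in the highest Control library. In all, 3 of 10 members were separate in this way after correction, against 8.98% of those genes (15.1% in either direction). No member passed limma adjusted over all genes with this correction, where the adjusted p of Nfkbia was 0.58.

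**Figure D3:**
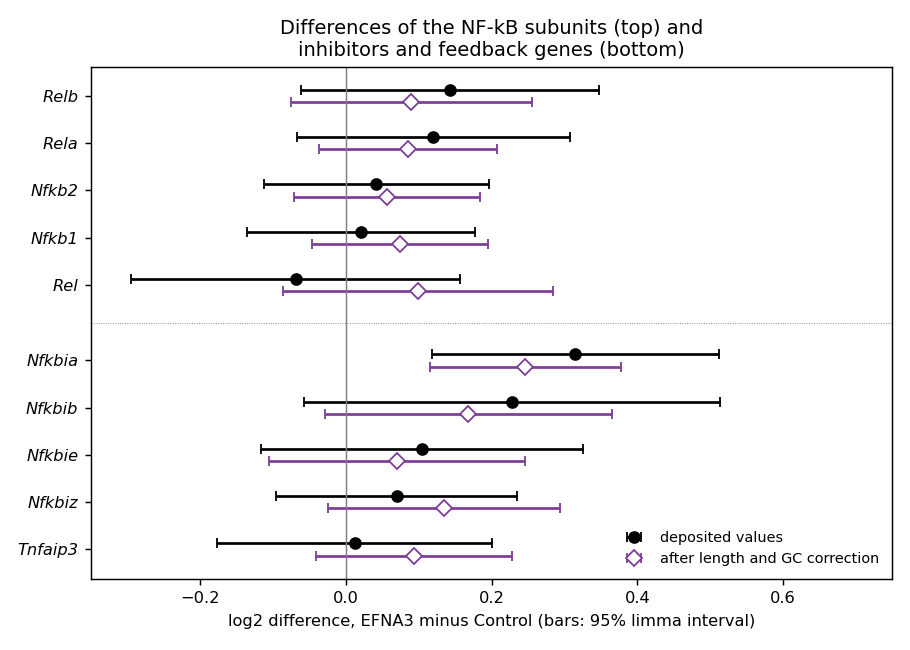
The log2 difference of each member, EFNA3 minus Control (horizontal axis), with 95% limma intervals over 3 EFNA3 and 3 Control libraries, from the deposited values (circles) and after the length and GC correction (diamonds). Only the intervals of Nfkbia, 0.12 to 0.51 and 0.12 to 0.38, lie wholly above 0, and the diamond of Rel lies on the other side of 0 from its circle.

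Levels of different genes were compared per kilobase of that transcript, as the deposited log2 value minus log2 of the length in kb. This takes the deposited values as not yet scaled by length, which is not stated. As deposited, Nfkb1 was the highest member, at means of 12.32 in EFNA3 and 12.30 in Control libraries, against 11.40 and 11.09 for Nfkbia. Per kilobase, Nfkbia was the most abundant member, at 10.75 ± 0.15 in EFNA3 and 10.43 ± 0.06 in Control libraries (SD, n = 3 each). Nfkb1 followed at 10.28 ± 0.06 in EFNA3 and 10.26 ± 0.07 in Control libraries, and Rela at 9.84 ± 0.09 and 9.72 ± 0.11. Nfkb2 stood at 9.12 ± 0.01 in EFNA3 and 9.07 ± 0.07 in Control libraries. Lower came Relb, Nfkbiz, Nfkbib, Tnfaip3 and Nfkbie, between 7.79 and 8.73 in EFNA3 means and between 7.68 and 8.59 in Control means. Rel was the least abundant, at 5.96 ± 0.13 in EFNA3 and 6.03 ± 0.08 in Control libraries. Among neighbours in this order, Control libraries overlapped between Relb and Nfkbiz and between Nfkbib and Tnfaip3 and were separate elsewhere. Over all libraries, the mean level of Nfkbia was at the 93.0th percentile of tested genes per kilobase and that of Rel at the 30.8th. As deposited, these percentiles were 83.5 for Nfkbia and 48.2 for Rel, and 94.3 for Nfkb1. Of the summed linear level of the 5 subunits per kilobase, Nfkb1 made up 38.7% in EFNA3 and 40.0% in Control libraries, Rela 28.7% and 27.6%, Nfkb2 17.3% and 17.6%, Relb 13.3% and 12.6%, and Rel 1.95% and 2.14%, as means of 3 libraries each. The Nfkb1 share ran from 37.4% to 40.5% over EFNA3 libraries and from 37.3% to 41.7% over Control libraries, so the groups overlapped in this share.

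Within each library the RNA value of Nfkbia was set against those of the 5 subunits, which removes any scale factor of the library. The log2 value of Nfkbia minus the mean of the 5 subunits was 0.90, 0.64 and 0.63 in EFNA3 replicates 1, 2 and 3, against 0.41, 0.50 and 0.47 in Control replicates 1, 2 and 3. All EFNA3 values lay above all Control values, by a mean of 0.26. Against single subunits the groups were separate for Rel, Relb, Nfkb1 and Nfkb2 and overlapped for Rela. As background, the ratio of Nfkbia to another tested gene was separate in the same direction for 56.7% of 16393 genes, so nothing particular to the subunits can be read from it. For Nfkbib the groups overlapped, and its log2 value minus that of Nfkbia was -2.09, -2.14 and -2.16 in EFNA3 replicates 1, 2 and 3, against -2.13, -2.12 and -1.88 in Control replicates 1, 2 and 3. Tnfaip3 had a value minus that of Nfkbia of -1.61, -1.10 and -1.20 in EFNA3 replicates 1, 2 and 3, below -0.92, -1.03 and -1.05 in Control replicates 1, 2 and 3. The groups were separate for this pair, with a mean difference of -0.30, and the same background of 56.7% applies.

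**Figure D4:**
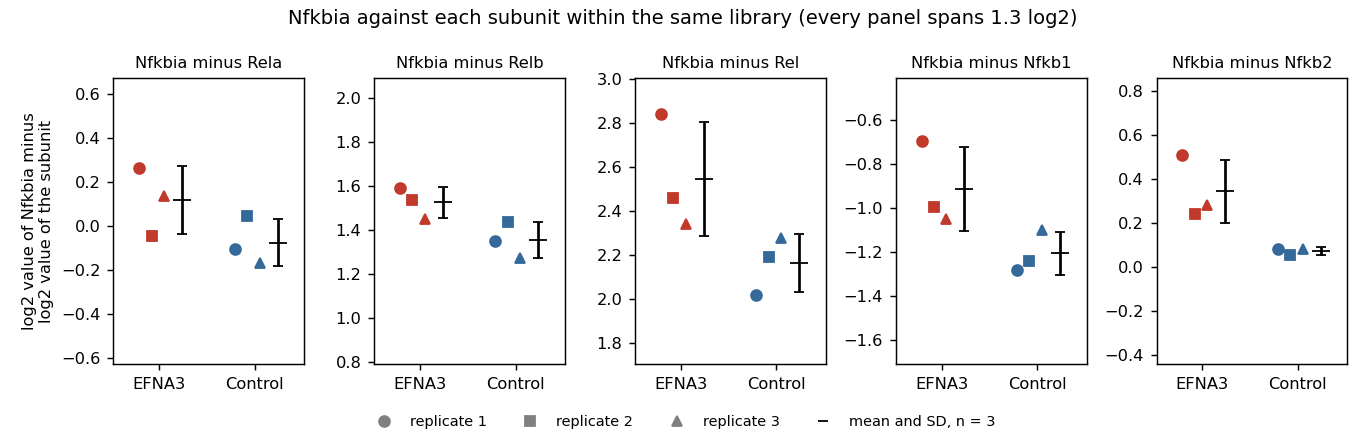
Deposited log2 value of Nfkbia minus that of each subunit in the same library (vertical axis, log2) for 3 EFNA3 and 3 Control libraries; symbols mark the replicate number and bars the mean and SD. The groups are separate for Relb, Rel, Nfkb1 and Nfkb2, and overlap for Rela, where EFNA3 replicate 2 at -0.04 lies below Control replicate 2 at 0.04.

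The rest of the pathway was described from lists of ligands, receptors, kinases and adaptors, other inhibitors and target genes. No gene of these lists passed limma adjusted over all genes tested. Of 13 ligand genes 6 passed the filter, all with higher means in EFNA3 libraries, against 50.8% of all genes tested. Their median difference was 0.39. Over all 10 ligand genes with values, 7 had higher and 3 lower means, the lower ones being Lta, Tnfsf13b and Il17c, and the median was 0.16, the same as over the 4 genes left by a filter at 5.64. Several were near the filter: Il1a, the interleukin-1 alpha alarmin, stood at 4.55 ± 0.36 in EFNA3 and 3.68 ± 0.78 in Control libraries, and Ltb, lymphotoxin beta, at 3.12 ± 0.86 and 2.17 ± 1.28 (SD, n = 3 each). Il36a, an epithelial interleukin-1 family cytokine, differed by 0.58 (SE 0.22) with no overlap between groups. Tnf, the classical inducer of the pathway, stood at 8.84, 8.78 and 8.74 in EFNA3 replicates 1, 2 and 3, against 8.68, 8.73 and 8.61 in Control replicates 1, 2 and 3. The Tnf groups did not overlap, but EFNA3 replicate 3 and Control replicate 2 met at 8.735 and 8.734, and the difference was 0.11 (SE 0.09). Of the 6 ligand genes tested, 2 had EFNA3 values above all Control values, against 8.53% of all genes tested.

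Of 12 receptor genes tested, 6 had higher and 6 lower means in EFNA3 libraries, with a median difference of 0.005. Tlr2, which senses bacterial lipopeptides, was the 1 receptor gene at an unadjusted limma p under 0.05, against 6.73% of all genes tested. It stood at 12.14, 12.11 and 12.04 in EFNA3 replicates 1, 2 and 3, against 11.89, 11.94 and 11.96 in Control replicates 1, 2 and 3. All EFNA3 values of Tlr2 lay above all Control values, and the difference was 0.17 (SE 0.06). In 1 receptor gene, Il1r1, all EFNA3 values lay below all Control values. Over all genes tested, 8.53% were separate with EFNA3 above and 7.45% with EFNA3 below. Tnfrsf12a, the receptor of TWEAK, differed by 0.25 (SE 0.12), the interleukin-1 receptor Il1r1 by -0.13 (SE 0.07) and the double-stranded RNA sensor Tlr3 by -0.17 (SE 0.10). With the length and GC correction these were 0.10, -0.002 and -0.09 in that order, and without EFNA3 replicate 1 they were 0.13, -0.09 and -0.08, while Tlr2 stood at 0.18 and 0.14.

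Among kinases and adaptors 19 of 26 were lower by mean in EFNA3 libraries, with a median difference of -0.06 and 0 genes at an unadjusted limma p under 0.05. Of these, 3 had EFNA3 values below all Control values, against 7.45% of all genes tested. Transcript length moved with this list: with the length and GC correction 15 of 26 were lower and the median was -0.02, and with EFNA3 replicate 1 also left out 13 were lower and the median was -0.004. Tab2 and Traf6, an adaptor pair upstream of the TAK1 kinase, differed by -0.14 (SE 0.08) and -0.16 (SE 0.09), Traf3 by -0.17 (SE 0.10) and the TNF receptor adaptor Tradd by 0.19 (SE 0.11). With the correction Tab2, Traf6, Traf3 and Tradd stood at -0.06, -0.02, -0.01 and 0.11. Among 18 other inhibitors and feedback genes 12 had higher means and 6 lower, with a median difference of 0.05 and again 0 at an unadjusted limma p under 0.05. Of the 18, 3 had EFNA3 values above all Control values and 1 below, against 8.53% and 7.45% of all genes tested. Tnip1, which partners the Tnfaip3 protein, differed by 0.14 (SE 0.07), its relative Tnip2 by -0.17 (SE 0.09), the IkB-like gene Nfkbil1 by 0.31 (SE 0.15) and N4bp1, a suppressor of NF-kB signalling, by -0.19 (SE 0.10). Without EFNA3 replicate 1, Nfkbil1 stood at 0.15 and N4bp1 at -0.07, and with the length and GC correction at 0.21 and -0.04.

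Target genes had higher means in 20 of 22 cases, against 50.8% of all genes tested, with a median difference of 0.17, or 0.14 with the length and GC correction and 0.12 without EFNA3 replicate 1. At an unadjusted limma p under 0.05 there were 4, all higher, against 3.87% of all genes tested, and 5 had EFNA3 values above all Control values, against 8.53%. Many of them are long known to be induced by NF-kB, and their list was drawn up with earlier results of these data known. Ier3, a stress-inducible immediate early gene, was likewise highest in EFNA3 replicate 1, at 11.48, 11.09 and 11.08 in EFNA3 replicates 1, 2 and 3, against 10.90, 10.86 and 10.93 in Control replicates 1, 2 and 3. Its difference was 0.32 (SE 0.11), or 0.19 without EFNA3 replicate 1. The other 3 were Saa3, Cxcl5 and the neutrophil chemokine gene Cxcl2, at differences of 0.80 (SE 0.17), 0.45 (SE 0.10) and 0.47 (SE 0.19). Without EFNA3 replicate 1 they stood at 0.75, 0.33 and 0.32 in that order. The groups of Saa3 and Cxcl5 were separate, while those of Cxcl2 overlapped.

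**Figure D5:**
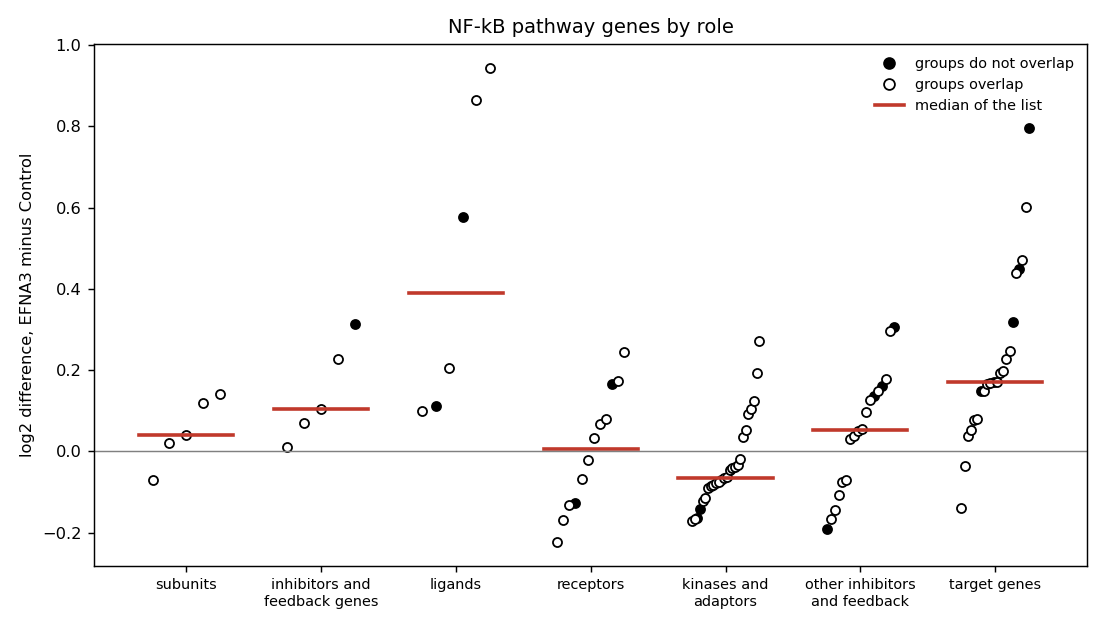
The log2 difference, EFNA3 minus Control (vertical axis), of every tested gene of the NF-kB pathway, by role (horizontal axis), ordered within each role by value; filled points mark genes whose 3 EFNA3 and 3 Control libraries do not overlap, and red lines the median of each list. The median is 0.39 for the 6 ligands that passed the filter (0.16 over all 10 with values), 0.17 for 22 target genes and -0.06 for 26 kinases and adaptors (-0.02 after the length and GC correction).

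Patterns over the 6 libraries were compared with that of Nfkbia by the root mean square difference of the centred log2 values, over 11777 genes that are neither members nor predicted genes and have a mean of at least 5.64. The 5 nearest were Bloc1s4, a lysosome-related organelle biogenesis gene, at 0.03, the prostaglandin-degrading enzyme gene Hpgd at 0.04, the nucleotide pool sanitizing gene Nudt1 at 0.04, the mitochondrial ribosomal gene Mrps18a at 0.04 and the matricellular gene Ccn2 at 0.04. Each had EFNA3 values above all Control values and a difference between 0.27 and 0.33, with EFNA3 replicate 1 the highest library. These traits follow from picking the genes by likeness to Nfkbia over the same 6 libraries and are not a separate result. Their transcripts were between 884 and 2490 nt long. None of these genes was on the pathway lists. Of the other members Nfkbib was nearest to Nfkbia, at 0.09, followed by Relb at 0.11, while Rel was farthest, at 0.26. Among all genes tested these ranked 711, 1172 and 8992 by nearness, so many genes outside the family were nearer to Nfkbia.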

How the data were processed

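Trim Galore, Subread, featureCounts and build mm39 are named in the submitters' processing notes. Their versions, the annotation, the strand setting and the step from reads to log2 values are not stated. The table deposited by the authors held log2 values (base inferred from their range, -0.79 to 18.1) for 19739 genes, whose sorted columns differed by at most 0.00302, as after quantile normalization. Columns were matched to samples by the description labels. Genes at or above 3.32 (log2 of 10) in 3 or more of the 6 libraries were tested, 16394 in all, with limma 3.58.1 in R 4.3.3 (mean-variance trend, two-sided, no block, Benjamini-Hochberg adjustment at 0.05), a fit also tested on simulated data. Members, gene lists and tests were chosen with earlier results of these data known. Named genes were the members, up to 4 genes per pathway list by smallest unadjusted p, and the 5 nearest to Nfkbia. Transcript length and GC share came from the longest protein-coding GENCODE M21 transcript (GRCm38), found by symbol for 97.4% of the genes tested; the correction took splines with 5 degrees of freedom in both out of each library's deviation from the gene means. Coordinates are those of RefSeq windows in GRCm38.p6 and not of mm39. A planned description of IkB protein sequences was not made.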

Additional observations from a re-analysis of the deposited data

How the results depend on the processing

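Over 17 alternatives to the pseudocount, filter, scaling, variance model, library weights, replicate block, libraries used and length correction, no member passed limma adjusted over all genes. The adjusted p of Nfkbia ran from 0.33 to 0.88 and its difference from 0.21 to 0.38. The count over all genes was 0 in 16 of them and 71 with a replicate block on the description numbers. That block leaves Control replicate 2 and EFNA3 replicate 2 alone, so its differences rest on replicates 1 and 3 of each group. With so few libraries left, its p-values rest on scatter pooled across genes, and its 71 calls are not read as detections. With this block the median of the subunits was 0.060, Tnfaip3 stood at -0.043 and the target Saa3 at 0.96. With a replicate block on the title numbers, which is balanced and so leaves every difference as it is, 0 genes passed, and the adjusted p of Nfkbia was 0.67. Deviations of same-numbered libraries had correlations of -0.11, 0.03 and -0.32 across genes, so the numbers were not taken as pairs; EFNA3 replicate 2 was the only library that correlated best with its own number. Leaving out 1 library moved the median of the subunits between 0.023 and 0.068, that of the inhibitors and feedback genes between 0.079 and 0.183, Nfkb1 between -0.015 and 0.053 and Tnfaip3 between -0.042 and 0.079. The median of the subunits was 0.085 with the length and GC correction, also with the title block, and 0.064 with it and without EFNA3 replicate 1. Rel stood at 0.099, 0.099 and 0.043 in these 3 fits, and Traf3 at 0.0016 in the last. The cause of these moves was not tested. Depth is unknown, so no limit of detection can be given.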
